A study of Homo sapiens with 6 samples.

Results

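The genes that drive and brake the passage from G1 into S phase were examined in RNA-seq of HK-2 cells, a line of human proximal tubular epithelial cells. There are 10 of them among the 58825 genes of the deposited table, and they were taken by gene symbol: the D-type cyclins CCND1, CCND2 and CCND3, their kinases CDK4 and CDK6, the kinase inhibitors CDKN1A, CDKN1B, CDKN2A and CDKN2B, and RB1. Each symbol has 1 row, and all 10 rows passed the minimum mean of 0.1 FPKM (fragments scaled for the length of the transcript and the depth of the library). The comparison is between 3 Control libraries from untreated HK-2 cells and 3 libraries from HK-2 cells exposed to 25 μg/ml OX-LDL (oxidized low-density lipoprotein) for 48 h. The study's methods place a period in low-serum medium before the treatment, and whether the Control cells were harvested at the same time is not given in the sources used here. The study's methods say of its cell experiments in general that they were repeated independently, but neither they nor the labels say so of these libraries. If the 3 libraries of a group did not come from separate cultures, the p-values measure only a spread between libraries that may be technical.

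In G1, a D-type cyclin binds CDK4 or CDK6, and the active kinase phosphorylates the retinoblastoma protein RB1. Phosphorylated RB1 releases the E2F transcription factors, which then drive the genes of DNA replication. The INK4 proteins p16INK4a (CDKN2A) and p15 (CDKN2B) bind CDK4 and CDK6 and block them, whereas the CIP/KIP proteins p21 (CDKN1A) and p27 (CDKN1B) bind whole cyclin-CDK complexes. In kidney tubules, p21 and p16INK4a are known as markers of the cell cycle arrest that follows injury. HK-2 limits what can be read from this pathway, because the line was immortalized with the E6 and E7 genes of human papillomavirus type 16. The E7 protein binds and inactivates RB1, so the level of RB1 mRNA does not tell the activity of its protein. The viral transcripts were not analysed here.

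Of the 10 genes, CDKN1A and CDK4 fell in OX-LDL and no other member passed the test. The mRNA of the inhibitor p21 was 2.69-fold lower, and that of the kinase CDK4 was 1.83-fold lower. That is 2 of 10 genes, or 20%, where 15.3% of the 19510 genes tested passed in either direction and 7.42% passed as lower and 7.91% as higher. A gene passed when its Benjamini-Hochberg adjusted p, taken over all genes tested from edgeR's quasi-likelihood fit of the estimated counts, was under 0.05, and every adjusted p below is of that kind unless another tool is named. The median log2 fold change was -0.16 over the 10 genes and -0.00 over all genes tested. These genes were chosen with earlier results of these data known, so the share is no test of an excess. The study's results give a fold change above 2 or below 0.5 with a p-value under 0.05, and its methods name adjusted p-values. With that p-value taken as unadjusted, CDKN1A alone passed, as did 6.36% of all genes in either direction and 3.16% as lower. In these bulk libraries, a smaller number of expressing cells and less RNA per cell cannot be told apart.

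The libraries held between 62561347 and 76797607 counts, and their TMM factors ran from 0.985 to 1.02. The epithelial markers of the kidney were only partly present. Of 16 tubular markers, 7 had a mean of at least 1 FPKM, among them KRT8, KRT18, EPCAM, CDH2 and PAX8, and 7 were under 0.1 FPKM, with LRP2 and SLC22A6 listed at 0 in every library. Their summed level ran from 242 to 266 FPKM in Control and from 267 to 297 FPKM in OX-LDL. All 5 endothelial markers were under 0.1 FPKM, with sums from 0.0378 to 0.122 FPKM in Control and from 0.0229 to 0.0835 FPKM in OX-LDL. Of 7 fibroblast markers, LUM was the one at 1 FPKM or more, the sum ran from 10.1 to 12.0 FPKM in Control and from 8.77 to 14.1 FPKM in OX-LDL, and DCN was listed at 0. The sum of 5 leukocyte markers was higher in OX-LDL, at 9.16 to 14.0 FPKM against 3.14 to 7.74 FPKM in Control. That sum is nearly all CD68, which did not itself pass the test (log2 fold change 1.08, adjusted p = 0.0858). The defining leukocyte gene PTPRC was at or near 0, at 0.0105 FPKM in the library OX-LDL 1 and listed at 0 in the others. The part of CD68-expressing cells in the changes of CDKN1A and CDK4 was not tested.

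**Figure D1:**
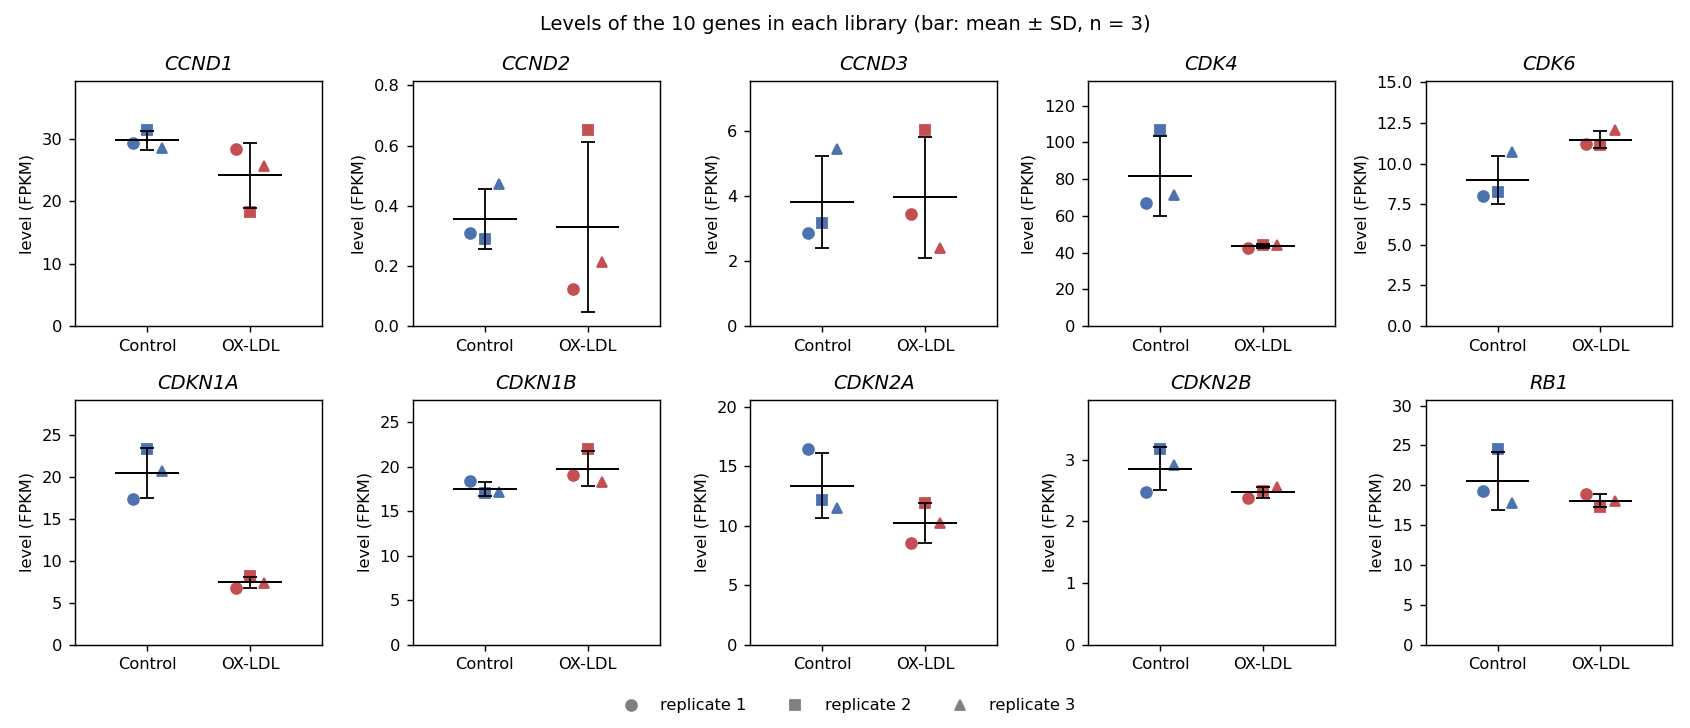
Level of each of the 10 genes in each library, in FPKM on axes that start at 0, for 3 Control and 3 OX-LDL libraries. Symbols are libraries, horizontal lines are group means and bars are SD (n = 3). CDKN1A and CDK4 sit lower in all 3 OX-LDL libraries, CDK6 sits higher in all 3, and the spread of CCND2 and CCND3 covers both groups.

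CDK4, the kinase that the D-type cyclins activate, was the most abundant of the 10 mRNAs in both groups. Its level was 66.9, 107 and 71.3 FPKM in Control, whereas it was 42.2, 44.2 and 44.2 FPKM in OX-LDL. The 3 OX-LDL libraries lay close together and below every Control library, and the Control library 2 stood above the other two. The means were 81.6 ± 21.8 and 43.6 ± 1.17 FPKM (SD, n = 3), with a log2 fold change of -0.87 (SE 0.17, 95% interval -1.27 to -0.47, adjusted p = 0.0187). The log2 fold change stayed between -0.99 and -0.64 when each library was left out in turn. The call was lost without the library OX-LDL 1 (-0.84, adjusted p = 0.0727) and without OX-LDL 3 (-0.88, adjusted p = 0.0675). CDK4 lies on the minus strand at chr12:57747727-57756013 (GRCh38), and its ends overlap 2 genes on the plus strand, TSPAN31 and MARCH9. TSPAN31 had 1872, 1115 and 2249 counts in Control and 790, 627 and 1572 in OX-LDL, and MARCH9 had 1273, 1275 and 774 against 411, 707 and 462. CDK4 itself had between 9644 and 29460 counts. MARCH9 was also lower in OX-LDL (log2 fold change -1.02, adjusted p = 0.0323). The libraries kept strand, but whether strand was used in the counting is not given in the sources used here.

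CDK6, the other kinase of the D-type cyclins, was measured at a lower level and did not follow CDK4. It was at 7.99, 8.25 and 10.7 FPKM in Control and at 11.2, 11.2 and 12.1 FPKM in OX-LDL. The groups did not overlap, and every OX-LDL library was higher. The means were 8.98 ± 1.50 and 11.5 ± 0.512 FPKM (SD, n = 3), with a log2 fold change of 0.38 (SE 0.12, 95% interval 0.09 to 0.68), an unadjusted p of 0.0166 and an adjusted p of 0.0817. It passed the threshold in DESeq2 (adjusted p = 0.0336) and without the library Control 3 (0.53, adjusted p = 0.0192). The interval reaches from a 1.07-fold to a 1.60-fold rise. CDK6 is at chr7:92604921-92833917 on the minus strand, and no overlapping gene carried counts. As a share of the summed FPKM of both kinases, CDK6 made up 10.7%, 7.18% and 13.1% in Control and 21.0%, 20.1% and 21.4% in OX-LDL. This share does not depend on scaling between libraries, and its groups did not overlap (10.3 ± 2.96% against 20.8 ± 0.653%, n = 3, a difference of 10.5 percentage points, exact two-sided permutation p = 0.1). With 3 libraries against 3, 0.1 is the smallest p that this test can give, and adjusted over the 4 shares examined it was 0.2. In estimated counts, which are not divided by transcript length, the difference was 20.1 percentage points. In FPKM, CDK4 was the more abundant kinase mRNA in all 6 libraries.

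CDKN1A, which encodes p21, showed the largest difference among the 10 genes. Its level was 17.4, 23.3 and 20.6 FPKM in Control, whereas it was 6.77, 8.14 and 7.31 FPKM in OX-LDL. The highest OX-LDL library was below the lowest Control library by more than the range within either group. The means were 20.4 ± 2.98 and 7.41 ± 0.688 FPKM (SD, n = 3), with a log2 fold change of -1.43 (SE 0.13, 95% interval -1.73 to -1.13, adjusted p = 0.00185). The call held in all 17 alternatives tried, with log2 fold changes between -1.53 and -1.33. CDKN1A is on the plus strand at chr6:36676460-36687339, and the only gene that overlaps it, DINOL on the other strand, had at most 4 counts in a library.

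CDKN1B, which encodes p27, differed by much less than its paralog. It was at 18.4, 17.0 and 17.1 FPKM in Control and at 19.0, 22.0 and 18.3 FPKM in OX-LDL. The groups overlapped narrowly, since Control 1 was above OX-LDL 3. The means were 17.5 ± 0.770 and 19.8 ± 2.00 FPKM (SD, n = 3), with a log2 fold change of 0.21 (SE 0.10, 95% interval -0.02 to 0.44, adjusted p = 0.209). CDKN1B is at chr12:12715058-12722369 on the plus strand. AC008115, inside it on the same strand, had 28 to 69 counts in a library, where CDKN1B had 3574 to 5136. The share of CDKN1B in the summed FPKM of both inhibitors was 51.4%, 42.2% and 45.4% in Control and 73.8%, 73.0% and 71.4% in OX-LDL. These shares did not overlap (46.3 ± 4.69% against 72.7 ± 1.22%, n = 3, a difference of 26.4 percentage points, exact two-sided permutation p = 0.1, adjusted over the 4 shares 0.2). The sum of both inhibitors averaged 38.0 ± 2.30 and 27.2 ± 2.60 FPKM (SD, n = 3). The 2 mRNAs were at similar levels in Control, where their ranges overlapped, whereas CDKN1B was above CDKN1A in each OX-LDL library.

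**Figure D2:**
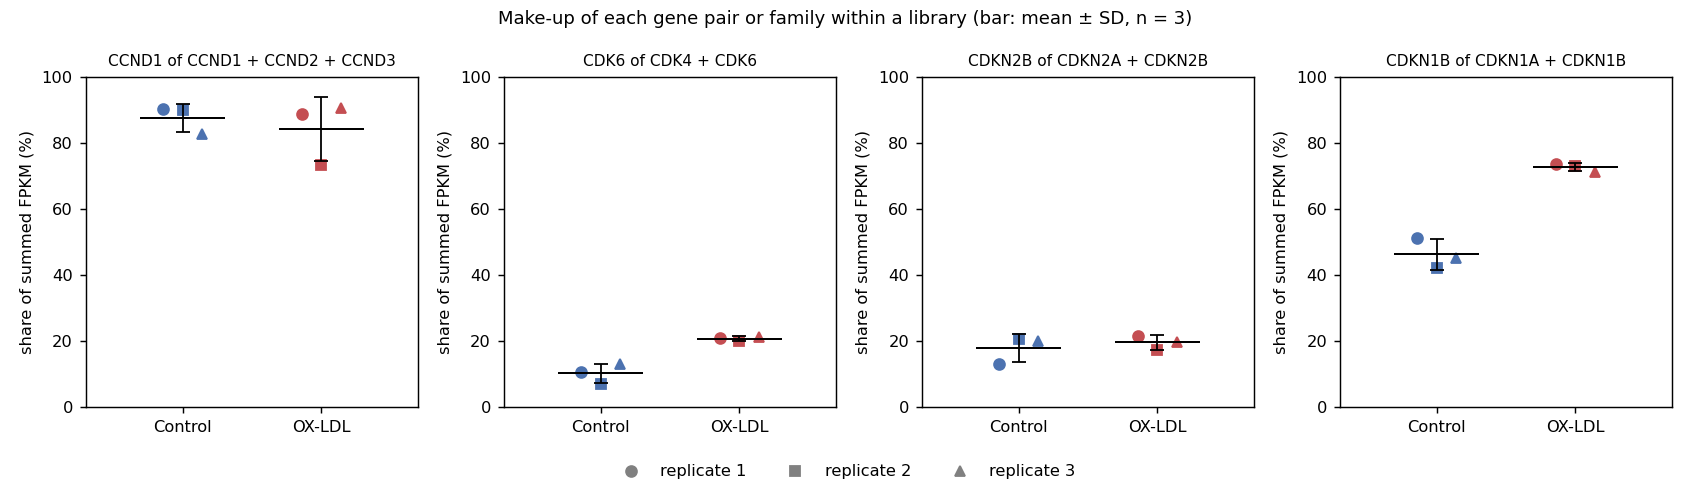
Make-up of each gene pair or family within a library, as the percent of summed FPKM that the first named gene contributes, on axes from 0 to 100%. Symbols are libraries, lines are group means and bars are SD (n = 3). The share of CDK6 and the share of CDKN1B are higher in every OX-LDL library, and the shares of CCND1 and CDKN2B overlap between the groups.

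The promoters of CDKN1A and CDK4 are shown because these 2 genes were the members that fell. Each is the RefSeq window (GRCh38.p14) from 250 bases before to 50 bases after an annotated start, written 5′ to 3′ on the gene's own strand, CDKN1A from chr6:36678464-36678763 (plus strand) and CDK4 from chr12:57752261-57752560 (minus strand). Capitals mark GGGCGG or its complement CCGCCC, the core of a GC box to which SP1 can bind, and CACGTG, an E-box that reads the same on both strands and to which MYC can bind.
CDKN1A: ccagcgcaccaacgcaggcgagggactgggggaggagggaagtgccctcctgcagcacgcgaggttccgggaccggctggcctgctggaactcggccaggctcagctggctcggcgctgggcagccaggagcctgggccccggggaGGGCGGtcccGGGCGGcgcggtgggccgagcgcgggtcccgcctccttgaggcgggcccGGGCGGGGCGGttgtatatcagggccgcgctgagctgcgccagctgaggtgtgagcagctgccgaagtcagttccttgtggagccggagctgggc
CDK4: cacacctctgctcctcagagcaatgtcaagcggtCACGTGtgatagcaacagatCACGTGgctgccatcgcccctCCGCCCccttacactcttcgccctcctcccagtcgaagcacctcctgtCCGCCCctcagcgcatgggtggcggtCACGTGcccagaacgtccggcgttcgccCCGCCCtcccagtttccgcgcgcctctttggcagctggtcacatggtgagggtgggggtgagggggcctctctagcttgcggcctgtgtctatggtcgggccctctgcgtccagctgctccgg
The CDKN1A window holds 4 GC boxes and no CACGTG. The GC boxes begin 104, 94, 45 and 40 bases before the start, and the last pair shares 1 base. The CDK4 window holds 3 GC boxes, all as CCGCCC, that begin 175, 127 and 73 bases before the start, and 3 copies of CACGTG that begin 216, 196 and 101 bases before it. At least 3 GC boxes were found in 15.8% of the 35116 RefSeq windows of this length, and at least 3 copies of CACGTG in 33 windows, or 0.094%. GC boxes also lie in windows of members that did not fall. CDK6 has 3 of them and 1 CACGTG in the first of its 2 windows and none in the other, and 2 of the 3 windows of CCND3 hold 5 and 4 GC boxes. Neither printed window holds TATAAA (11.5% of all windows) or the E2F-type sequence TTTCCCGC (1.63%), read on both strands. These are matches of letters in a short window and not measured binding. The start used lies 2254 bases inside the CDKN1A gene of the deposited table and 3703 bases inside the CDK4 gene, and which start the cells used was not measured. The promoter table has an entry for 8 of the 10 members, and not for CCND1 and CCND2.

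Neither INK4 member, CDKN2A or CDKN2B, passed the test. CDKN2A was at 16.5, 12.2 and 11.5 FPKM in Control and at 8.59, 11.9 and 10.3 FPKM in OX-LDL. The groups overlapped, with Control 1 above and OX-LDL 1 below the rest. The means were 13.4 ± 2.72 and 10.2 ± 1.65 FPKM (SD, n = 3), with a log2 fold change of -0.35 (SE 0.18, 95% interval -0.79 to 0.08, adjusted p = 0.245). The gene is at chr9:21967753-21994873 on the minus strand, and its value joins the transcripts of p16INK4a and of p14ARF, a protein that is read in another frame. Its level of at least 8.59 FPKM in each library says nothing of how the transcripts divide.

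CDKN2B, the neighbour of CDKN2A, was low in both groups. It was at 2.48, 3.18 and 2.91 FPKM in Control and at 2.38, 2.49 and 2.56 FPKM in OX-LDL, and the groups overlapped. The means were 2.86 ± 0.356 and 2.48 ± 0.0912 FPKM (SD, n = 3), with a log2 fold change of -0.17 (SE 0.13, 95% interval -0.48 to 0.13, adjusted p = 0.426). CDKN2B is at chr9:22002903-22009305 on the minus strand and shares a stretch of very similar coding sequence with CDKN2A, so reads from that stretch may be assigned to either gene. It made up 13.1%, 20.8% and 20.2% of the summed FPKM of both genes in Control and 21.7%, 17.3% and 19.9% in OX-LDL (exact two-sided permutation p = 0.7, n = 3). CDKN2B-AS1, the noncoding RNA on the opposite strand that covers CDKN2B and overlaps the 5′ end of CDKN2A, had 292, 412 and 627 counts in Control and 475, 473 and 1074 in OX-LDL (log2 fold change 0.62, adjusted p = 0.362).

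The D-type cyclins were led by CCND1 in every library. CCND1 was at 29.2, 31.4 and 28.5 FPKM in Control and at 28.4, 18.3 and 25.6 FPKM in OX-LDL. The groups did not overlap in FPKM, but OX-LDL 1 and Control 3 were nearly level, and in normalized counts the groups overlapped. The means were 29.7 ± 1.49 and 24.1 ± 5.19 FPKM (SD, n = 3), with a log2 fold change of -0.27 (SE 0.15, 95% interval -0.63 to 0.09, adjusted p = 0.293). CCND1 is at chr11:69641087-69654474 on the plus strand. LTO1, which overlaps its end on the other strand, had 327 to 1199 counts, where CCND1 had 8039 to 13520.

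CCND3 was at 2.84, 3.18 and 5.43 FPKM in Control and at 3.43, 6.02 and 2.41 FPKM in OX-LDL. Each group had 1 high library, and the groups overlapped. The means were 3.82 ± 1.41 and 3.95 ± 1.86 FPKM (SD, n = 3), with a log2 fold change of 0.08 (SE 0.38, 95% interval -0.82 to 0.98, adjusted p = 0.914). CCND3 is at chr6:41934933-42050357 on the minus strand. CCND2, at chr12:4273762-4305353 on the plus strand, was the least abundant member, at 0.309, 0.291 and 0.472 FPKM in Control and at 0.124, 0.652 and 0.214 FPKM in OX-LDL. It had between 66 and 425 counts, and its log2 fold change of -0.08 (SE 0.59, 95% interval -1.49 to 1.33, adjusted p = 0.948) leaves more than a 2-fold change in either direction within the interval. The library OX-LDL 2 was the highest of its group for CCND2 and for CCND3 and the lowest for CCND1. CCND1 accordingly made up 73.3% of the summed D-type cyclin FPKM there, against 88.9% and 90.7% in OX-LDL 1 and 3 and 90.3%, 90.0% and 82.8% in Control (exact two-sided permutation p = 0.7, n = 3).

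RB1, the substrate of the cyclin D kinases, was at 19.3, 24.6 and 17.7 FPKM in Control and at 18.9, 17.3 and 18.0 FPKM in OX-LDL. The groups overlapped, and Control 2 was the one library that stood higher. The means were 20.5 ± 3.61 and 18.1 ± 0.802 FPKM (SD, n = 3), with a log2 fold change of -0.15 (SE 0.12, 95% interval -0.44 to 0.13, adjusted p = 0.454). RB1 is at chr13:48303726-48599436 on the plus strand. RCBTB2, which lies inside that span on the other strand, rose from 395, 412 and 386 counts to 728, 842 and 957 (log2 fold change 1.13, adjusted p = 0.00392), and RB1 had 8995 to 14170 counts.

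The 95% intervals, each for a single gene and built on the spread between these libraries, show what size of change the test could have missed. They lie within a 2-fold change in either direction for CDK6, CDKN1B, CDKN2A, CDKN2B, CCND1, CCND3 and RB1, with 1.98-fold as the upper bound of CCND3. Groups that did not overlap in FPKM were seen for 4 of the 10 genes, CDKN1A, CDK4 and CCND1 lower and CDK6 higher, where 37.2% of all genes tested had groups that did not overlap. In normalized counts it was again 4 genes, with CDKN1B (higher) in place of CCND1, against 36.9% of all genes. The order of levels differed between the groups. CDKN1A moved furthest down. In Control, where its range overlapped those of RB1 and CDKN1B, it was above CDKN2A and CDK6, and in OX-LDL it was below both in every library. RB1 was above CDKN1B in every Control library and below it in every OX-LDL library, with ranges that overlapped in both groups. CDKN2A was above CDK6 in every Control library, and in OX-LDL their ranges overlapped. CDK4 was first in both groups and CCND2 last, and CCND3 and CDKN2B, above CCND2, had ranges that overlapped in both groups.

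**Figure D3:**
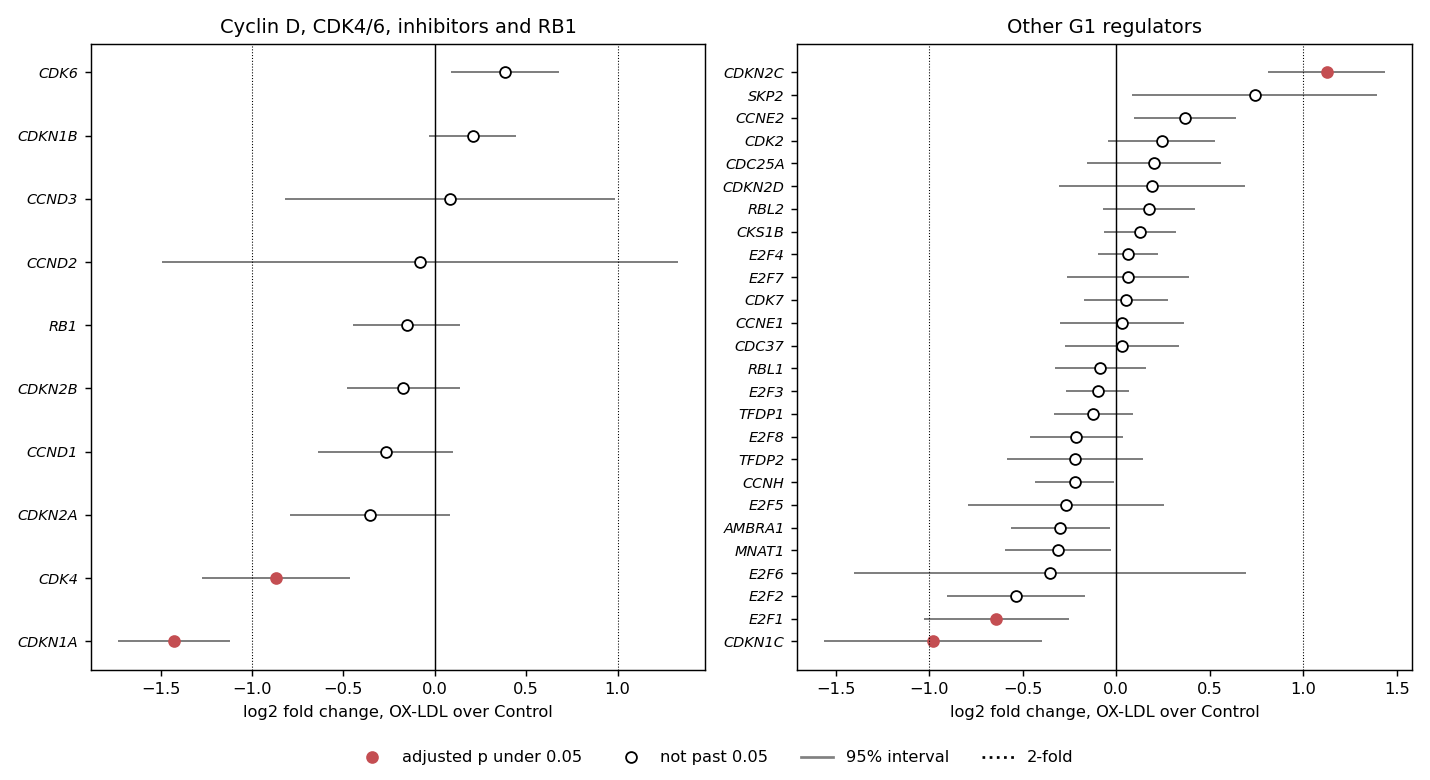
Log2 fold change of OX-LDL over Control with its 95% interval from edgeR, for the 10 genes on the left and 26 other regulators of G1 on the right. Filled points have an adjusted p under 0.05 and dotted lines mark a 2-fold change. CDKN1A and CDK4 are the filled points on the left, and CDKN2C, CDKN1C and E2F1 are those on the right.

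The pattern over the 6 libraries most like that of CDKN1A was found in SPRY2, MT-TI, DNAJC1, CXCL8 and LURAP1L. Their Pearson correlations with CDKN1A in log2 normalized counts were 0.998 to 0.999 over 6 libraries, among the 12258 genes that averaged 1 FPKM or more. The libraries share the difference between the groups, and 1366 of these genes, or 11.1%, had a correlation above 0.9. CXCL8, which encodes the chemokine interleukin-8, had a log2 fold change of -2.09, and LURAP1L one of -3.85.

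Of 26 other regulators of G1, 1 rose, 2 fell and 23 did not pass the test. That is 11.5% against 15.3% of all genes, and the median log2 fold change was -0.03. CDKN2C, which encodes the INK4 inhibitor p18, was at 14.9, 10.9 and 12.7 FPKM in Control and at 26.1, 28.7 and 27.5 FPKM in OX-LDL. Every OX-LDL library was above every Control library, with a log2 fold change of 1.12 (SE 0.13, adjusted p = 0.00412), and the call held in all alternatives. Among the INK4 genes, CDKN2C was therefore higher while CDKN2A and CDKN2B did not pass the test, and CDKN2D, the gene of p19, went from 2.69 ± 0.547 to 3.01 ± 0.338 FPKM (SD, n = 3, adjusted p = 0.591). CDKN1C, which encodes p57, the remaining CIP/KIP inhibitor, fell from 2.18 ± 0.314 to 1.08 ± 0.287 FPKM (SD, n = 3, log2 fold change -0.98, SE 0.24, adjusted p = 0.0394). E2F1, the first of the activating E2F factors, fell from 16.5 ± 1.13 to 10.3 ± 2.31 FPKM (SD, n = 3, log2 fold change -0.64, SE 0.16, adjusted p = 0.0416). The calls of CDKN1C and E2F1 were each lost in 5 of the 6 fits that left out a library, with adjusted p-values up to 0.125 and 0.128. The list had 5 calls without OX-LDL 2, and without any 1 of the other 5 libraries CDKN2C was the only call.

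Below the threshold, E2F2 (log2 fold change -0.53, adjusted p = 0.0607), CCNE2, the gene of cyclin E2 (0.37, adjusted p = 0.0750), and AMBRA1, which directs the D-type cyclins to degradation (-0.30, adjusted p = 0.118), had the next smallest p-values of the list. SKP2, the ubiquitin ligase subunit that removes p27, was chosen after its values were seen. It was at 5.19, 5.10 and 6.79 FPKM in Control and at 7.07, 7.28 and 13.5 FPKM in OX-LDL. All OX-LDL libraries were above the Control libraries, the library OX-LDL 3 most of all, and the difference did not pass the test (log2 fold change 0.74, SE 0.27, adjusted p = 0.123).

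Among 15 genes known to control transcription of the members, FOXO1 was under the minimum level, and of the 14 tested 3 rose and 3 fell. That is 42.9% against 15.3% of all genes, with a median log2 fold change of -0.09. These regulators, like the G1 regulators and the E2F targets, were chosen with earlier results of these data known. Their share therefore cannot show an excess over the background. KLF4, a zinc finger factor that activates CDKN1A, was at 3.51, 4.35 and 3.06 FPKM in Control and at 0.502, 0.708 and 0.734 FPKM in OX-LDL. No library of either group came near the other group, and the log2 fold change was -2.44 (SE 0.22, adjusted p = 0.00185). JUN, an AP-1 subunit that acts on CCND1, fell from 35.3 ± 5.57 to 16.9 ± 1.20 FPKM (SD, n = 3, log2 fold change -1.03, SE 0.12, adjusted p = 0.00432). SP1, a zinc finger factor that binds GC boxes, fell from 24.2 ± 0.798 to 16.9 ± 2.39 FPKM (SD, n = 3, log2 fold change -0.49, SE 0.11, adjusted p = 0.0291).

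The genes of this list that rose were ID1, CTNNB1 and FOSL1. ID1, an inhibitor of helix-loop-helix factors that represses CDKN2A, rose from 23.4 ± 5.32 to 63.4 ± 3.38 FPKM (SD, n = 3, log2 fold change 1.46, SE 0.17, adjusted p = 0.00423). CTNNB1, which encodes β-catenin, an activator of CCND1 in Wnt signaling, rose from 15.3 ± 0.442 to 22.4 ± 0.244 FPKM (SD, n = 3, log2 fold change 0.58, SE 0.06, adjusted p = 0.00295). FOSL1, another AP-1 subunit, rose from 7.66 ± 1.34 to 13.1 ± 2.26 FPKM (SD, n = 3, log2 fold change 0.81, SE 0.18, adjusted p = 0.0293). The calls of SP1 and FOSL1 were lost in 5 and 4 of the 6 fits that left out a library, with adjusted p-values up to 0.102 and 0.0965.

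Of 20 target genes of E2F, 3 rose and none fell, which is 15% against 15.3% of all genes and so close to the background. The median log2 fold change was -0.09, with 12 genes lower and 8 higher. At an unadjusted p under 0.05, 3 genes were higher and 6 lower, and DESeq2 called 3 higher and 1 lower. CCNA2, the gene of cyclin A, was at 32.1, 29.8 and 36.1 FPKM in Control and at 78.2, 53.1 and 73.1 FPKM in OX-LDL. The groups were well apart, with a log2 fold change of 1.09 (SE 0.16, adjusted p = 0.00775) that held in all alternatives. RRM2, a subunit of ribonucleotide reductase, rose from 8.53 ± 0.919 to 20.7 ± 7.10 FPKM (SD, n = 3, log2 fold change 1.31, SE 0.25, adjusted p = 0.0168). ORC1, a subunit of the origin recognition complex, rose from 10.9 ± 0.934 to 15.1 ± 0.496 FPKM (SD, n = 3, log2 fold change 0.50, SE 0.10, adjusted p = 0.0175). RRM2 lost its call without Control 1 (adjusted p = 0.0572) or Control 2 (0.0688), and ORC1 without Control 2 (0.0550) or OX-LDL 3 (0.0600). The replication genes POLA1 (log2 fold change -0.41, adjusted p = 0.0582), MCM7 (-0.28, adjusted p = 0.0883) and MCM2 (-0.31, adjusted p = 0.124) were lower in all OX-LDL libraries and did not pass the test. The list had 7 calls, 3 higher and 4 lower, without the library OX-LDL 2 and 1 call without Control 2.

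**Figure D4:**
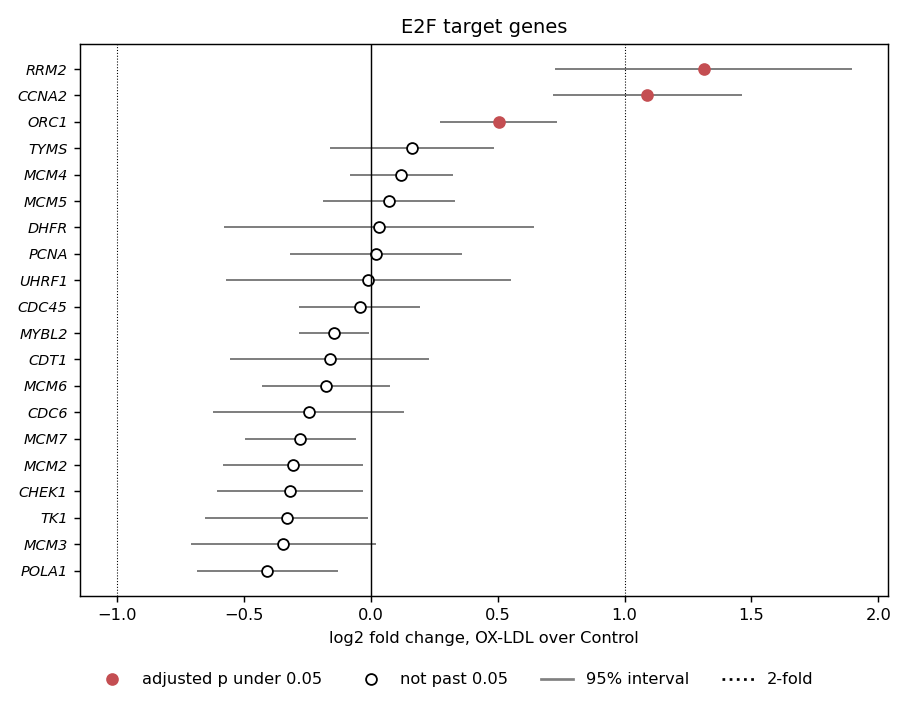
Log2 fold change of OX-LDL over Control with its 95% interval from edgeR, for 20 target genes of E2F. Filled points have an adjusted p under 0.05 and dotted lines mark a 2-fold change. The filled points are RRM2, CCNA2 and ORC1, all higher, and most of the open points lie below 0.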

How the data were processed

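Strand-specific RNA-seq libraries from 3 Control and 3 OX-LDL samples of HK-2 cells were grouped by the labels. The authors deposited 1 table with estimated counts per gene, not scaled for library size, and FPKM values that the authors scaled for transcript length and depth, with a count of 0 listed at 0.0001 FPKM. The submitters' processing notes name cutadapt 1.9, HISAT2 2.0.4, StringTie 1.3.4d and GRCh38. Coordinates are those of the table, and 5 of the 10 members have identical ones in GENCODE 29. The counts exceed read pairs, since values of 4, 8 and 12 were 3.26, 2.95 and 2.13 times as frequent as their neighbours, and dividing them by 4 was an alternative. A check of pairs of libraries within each group found no library repeated there (chi-square of 38.2 to 65.3 per gene). Pairs across the groups were not part of this check.

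The counts were tested with edgeR 4.0.16 (R 4.3.3, TMM, estimateDisp, glmQLFit, glmQLFTest, group as the only term) for the 19510 genes averaging 0.1 FPKM or more, and each SE was taken from the log2 fold change and its F. DESeq2 1.42.0 and limma 3.58.1 on log2(FPKM + pseudocount of 0.01, 0.1 or 1) were alternatives. Other scalings and filters, a replicate block and fits without each library were alternatives too. Only the edgeR fit, DESeq2 and limma were checked on simulated data, limma on scaled counts in place of FPKM and with a pseudocount of 0.1. The remaining alternatives were not checked in that way. The members and lists were chosen with earlier results of these data known. Named are all members, overlapping genes (those with the most counts), up to 6 genes of each list by smallest p and its extremes, the 5 genes most like CDKN1A, the marker genes at the highest and lowest levels, and genes stated as chosen later. Some genes and 1 gene list are not reported here. Shares were compared by exact permutation tests with scipy 1.17.1.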

Additional observations from a re-analysis of the deposited data

How the results depend on the processing

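Each of the 10 genes kept its direction under every change of test, scaling, filter and pseudocount, and CDKN1A kept its call in all of them. CCND2 was not tested with a minimum of 1 FPKM. The G1 regulators gave 6 calls in DESeq2, 5 with a minimum of 1 FPKM and 1 with no minimum, against 3. The calls lost with no minimum were CDKN1C (edgeR adjusted p = 0.0538) and E2F1 (0.0532). With each library left out, the calls ran from 1161 to 2943 over all genes, from 1 to 3 for the 10 genes, from 1 to 5 for the G1 regulators and from 1 to 7 for the E2F targets. The log2 fold change changed sign in such fits for CCND2 (-1.04 to 0.31) and CCND3 (-0.36 to 0.43). MYC ran from -1.31 to 2.78 there, and was 0.29 with the replicate block and 0.54, 0.52 and 0.35 in limma with pseudocounts of 0.01, 0.1 and 1. In estimated counts, which are not divided by length, the share of CDK6 rose by 20.1 percentage points in place of 10.5. With a replicate block, 1636 genes passed in place of 2991, and 2 of the 10 genes. CDKN1C (edgeR adjusted p = 0.0932), SP1 (0.0505) and ORC1 lost their calls in that fit. Libraries with the same number did not deviate together (correlations of -0.04, -0.00 and 0.04), and the main test did not pair them. These correlations cannot tell whether such libraries came from the same culture or day, and the labels do not say. The edgeR fit with estimateDisp, listed as an alternative, was the fit used, since this version of glmQLFit needs dispersions, and gave no separate value. CCND2 had the fewest counts of the 10 genes, 66 to 425 in a library.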

Other observations

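MYC, a regulator of CDK4 and of the D-type cyclins, was noticed for the spread of its values and chosen after they were seen. It was at 0.986, 24.7 and 1.26 FPKM in Control and at 16.1, 6.04 and 0.978 FPKM in OX-LDL. Each group held libraries near 1 FPKM and libraries many times higher, so the spread within a group was wider than any difference between the groups (log2 fold change -0.18, SE 1.37, edgeR adjusted p = 0.948). The library Control 2 was the highest for MYC and also for CDK4, while the 3 OX-LDL libraries were alike in CDK4 and unlike in MYC. The tubular marker GGT1 has 2 rows in the table, and its libraries divide between them in a similar on and off way. The longer row was at 18.2, 0.0518 and 22.6 FPKM in Control and at or under 0.0658 FPKM in OX-LDL, where the other row was at 3.13, 18.2 and 3.88 FPKM in Control and at 15.8, 17.7 and 16.1 FPKM in OX-LDL. No second row under the symbol MYC was found in the table, and genes that overlap its span were not examined.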
